A study of Drosophila melanogaster with 4 samples.

Results

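The regions described here are the peaks of GFP-tagged Lola-PJ on the X chromosome of Drosophila melanogaster embryos. They were chosen by position alone, as every peak that the authors placed on the assembled X, without its heterochromatin scaffold. There were 356 of them among 5954 peaks in the whole list. They are set against 516 peaks on the autosomal arms 2L, 3L and 3R, of which 135 lay on 2L, 198 on 3L and 183 on 3R. On 2L a tandem array of 90 peaks between positions 21416715 and 21543666 was left out.

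Lola is a transcription factor of the BTB zinc finger family. Its gene makes many protein isoforms that share the BTB domain and differ in their zinc fingers, and it is best known for its part in the guidance of axons in the embryo. In Drosophila males the single X is transcribed at a raised level by the dosage compensation machinery, so the X and the autosomes differ in their chromatin.

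The study used 2 chromatin samples precipitated with a rabbit polyclonal antibody to GFP (ab290) and 2 input DNA samples, taken from whole embryos laid over 0 to 12 h. All 4 samples carry the same labels: strain lola-RJ-GFP, genotype PBac{y[+]-attP-3B}VK00033, with the genomic coding region of lola-RJ as the transgene. The collection protocol names y; bw cn sp flies, and the labels name no mutation of the endogenous lola gene and no sex of the embryos. No precipitate from embryos without the tag was analysed here, so binding cannot be told apart from precipitation without Lola-PJ. The authors deposited 1 peak list for the whole series, so no value below has a spread between replicates, the depth of each sample is unknown, and intervals cover counting error only. Positions are those of release 5 of the FlyBase genome, counted from 1. No release 5 sequence or gene annotation was used, so the peaks are named by position and no gene is assigned to them.

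Each peak carries a score from the authors' caller, read here as −log10 of a p-value. Most scores equal −log10 of a Poisson probability with a single background mean of 49.15 overlapping fragments. For these peaks, called here peaks at the fixed background, the score gives back a pileup of fragments and a fold over that background. On the X this held for 304 peaks, within 0.01 of a score unit. Their fold had a median of 2.24, with quartiles of 2.05 and 2.53 and a range from 1.81 to 8.18. In 31 of them the pileup was at least 3-fold over the background and in 9 at least 4-fold. Most X peaks at the fixed background were therefore small rises over it, with a short tail of tall ones.

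The strongest X peaks were spread along the arm. Of the 20 highest, 13 had no neighbour within 5 kb, as had 152 of the other 336 X peaks. The highest score was 216.23, at X:10817767-10819764, where 402 overlapping fragments stood 8.18-fold over the background across 1998 bp. No other X peak at the fixed background came near it, the next being X:8315147-8315807 at a score of 92.30 and 5.11-fold. The peak at X:7164513-7166379 scored 90.17 (5.05-fold) and that at X:6627114-6628691 scored 79.11 (4.72-fold). These 4 lie between positions 6627114 and 10819764, on the telomere side of the middle of the arm.

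A second group of strong peaks lay on the centromere side. Between positions 19199599 and 19344760 there were 3 peaks of similar height, with scores of 65.31, 62.78 and 60.28 and folds of 4.29, 4.21 and 4.13. Each of them was wider than 1 kb, at 1813, 1630 and 1769 bp. Farther apart, X:15206456-15207204 and X:13250540-13251531 scored 64.67 (4.27-fold) and 62.15 (4.19-fold). The next peaks in height at the fixed background were X:9707983-9708952 at 55.39 (3.97-fold) and X:9032939-9034307 at 50.06 (3.78-fold).

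Of the 20 highest-scoring X peaks, 6 were not at the fixed background, and for these the score gives no fold. They include the second highest, 120.94 at X:22422280-22422891, which is also the last peak of the arm. No length of the assembled arm was used, so whether this peak is cut short by the end of the arm was not tested. They also include X:21834722-21835132 at 66.36, which at 411 bp was the narrowest of the 20. The other 4 were X:8821903-8823662 at 52.21, X:2964790-2967055 at 48.14, X:11539574-11540704 at 46.17 and X:3621169-3623896 at 43.36. The remaining 3 of the 20, all at the fixed background, scored 47.75 at X:3011088-3012824, 45.47 at X:10729462-10730136 and 44.35 at X:9299274-9300561.

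**Figure D1:**
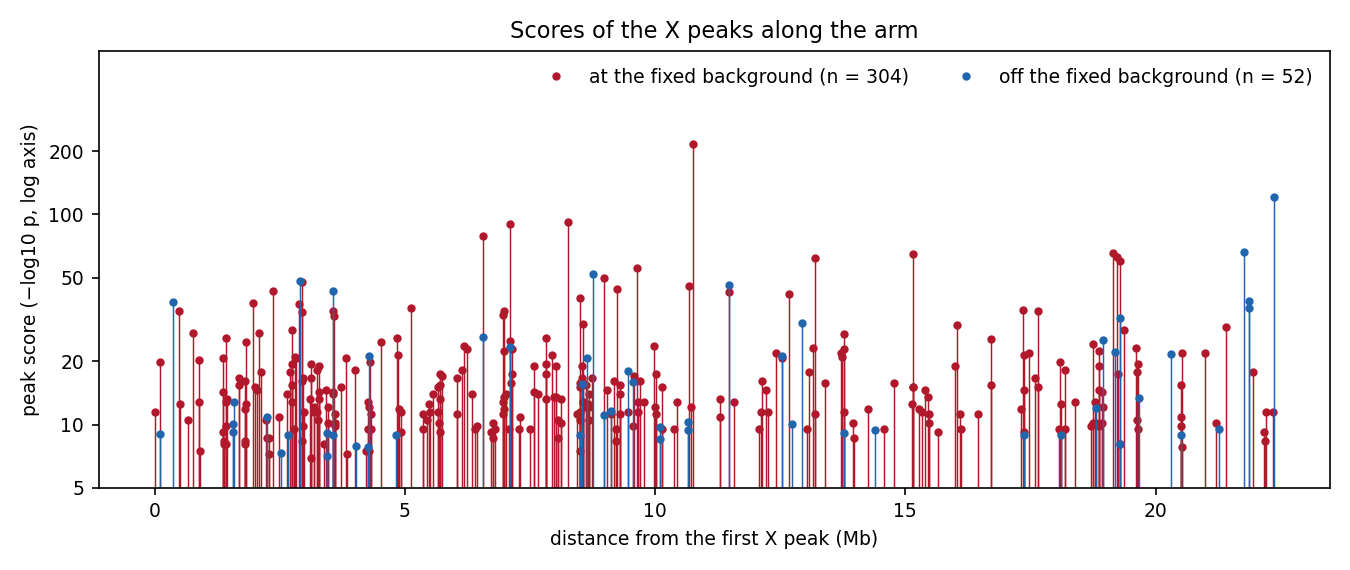
Score of each X peak (log axis, −log10 p) against its distance in Mb from the first X peak, for the 304 peaks at the fixed background (red) and the 52 off it (blue). The highest red peak, at 216.23, stands alone, and the highest blue one, at 120.94, is the last peak of the arm.

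Height and width went together on the X, as on the other arms. Spearman's rho between width and score was 0.73 over the 356 X peaks, against 0.76 over the 516 peaks of 2L, 3L and 3R. This is a description, since both values come from the same pileup. X peaks under 250 bp numbered 62 and had a median score of 9.73, with none above 16.19. X peaks of 1500 bp or more numbered 20 and had a median score of 43.3, with none below 21.91. The 20 highest-scoring X peaks had a median width of 1474 bp, and the other 336 had a median of 408.5 bp.

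Among the 20 highest X peaks 4 were narrower than 700 bp. They were X:21834722-21835132, at 411 bp and a score of 66.36, the last peak of the arm, at 612 bp and 120.94, X:8315147-8315807, at 661 bp and 92.30, and X:10729462-10730136, at 675 bp and 45.47. The 5 widest X peaks were X:3621169-3623896 (2728 bp), X:2964790-2967055 (2266 bp), X:10817767-10819764 (1998 bp), X:6237715-6239649 (1935 bp) and X:7164513-7166379 (1867 bp). Among these X:6237715-6239649 had by far the lowest score, 23.67. At the other end, 12 X peaks had the smallest width in the list, 201 bp, and 36 were at most 220 bp wide.

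Most widths and scores on the X were like those on the other arms. The highest scores differed more, at 216.23 on the X, 80.45 on 2L, 198.16 on 3L and 86.67 on 3R. The median width was 416.5 bp on the X, against 419 bp on 2L, 347.5 bp on 3L and 419 bp on 3R. Peaks wider than 1 kb made up 14.0% of X peaks (50 of 356, exact 95% interval 10.6 to 18.1%) and 14.5% of the peaks on the 3 arms (75 of 516, 11.6 to 17.9%). Peaks scoring 20 or more made up 24.7% of X peaks (20.3 to 29.5%) and 25.6% on the 3 arms (21.9 to 29.6%). Neither share differed between the X and the 3 arms in Fisher's exact test (two-sided, adjusted p = 0.922 for both, over 4 comparisons). The differences were −0.49 and −0.86 percentage points, and these intervals do not show that the shares are equal. Peaks under 250 bp made up 17.4% on the X, 23.7% on 2L, 23.2% on 3L and 24.0% on 3R. That difference was not tested.

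The X held more peaks per length than any of the 3 arms, and the excess lay in the peaks at the fixed background. Up to the last peak of each arm there were 15.9 peaks per Mb on the X, against 5.97 on 2L, 8.10 on 3L and 6.63 on 3R. The ratio of the X to the 3 arms together was 2.30 (exact 95% interval 2.00 to 2.63, adjusted p = 1.86e-30 over 15 such ratios, exact binomial test). Against single arms it was 2.66 for 2L, 1.96 for 3L and 2.39 for 3R. Peaks covered 0.905% of the X and 0.394% of the 3 arms.

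Split by background, the direction turned. Peaks at the fixed background reached 13.6 per Mb on the X and 3.16 per Mb on the 3 arms, a ratio of 4.29 (3.61 to 5.11, adjusted p = 1.71e-60, exact binomial test). Peaks off it reached 2.32 per Mb on the X, below 2L (2.74), 3L (4.25) and 3R (4.13), and the ratio to the 3 arms together was 0.62 (0.45 to 0.83, adjusted p = 0.00136, exact binomial test). The share of peaks at it was 85.4% on the X (81.3 to 88.9%) and 45.7% on the 3 arms (41.4 to 50.1%). In the whole list 4123 of 5954 peaks were at it, a share between these, so the 3 arms lay below the list and the X above it.

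Over both kinds of peaks together, the ratio was above 1 in each class of score. It was 2.27 for scores below 10, 2.27 from 10 to 15, 2.51 from 15 to 20 and 2.52 from 20 to 30. It was 1.66 (1.01 to 2.69, adjusted p = 0.0345, exact binomial test) for scores from 30 to 50, and 2.91 (1.32 to 6.37, adjusted p = 0.00453, exact binomial test) for the 14 X peaks and 16 other peaks at 50 or more. With neighbours within 5 kb counted as 1 locus it was 1.93 (1.64 to 2.27), from 238 loci on the X and 410 on the 3 arms. These p-values and those of the share tests are too small, because close peaks share their surroundings and the X is 1 chromosome. No read numbers per arm were used, so how much X chromatin went into the precipitate and the input was not tested.

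**Figure D2:**
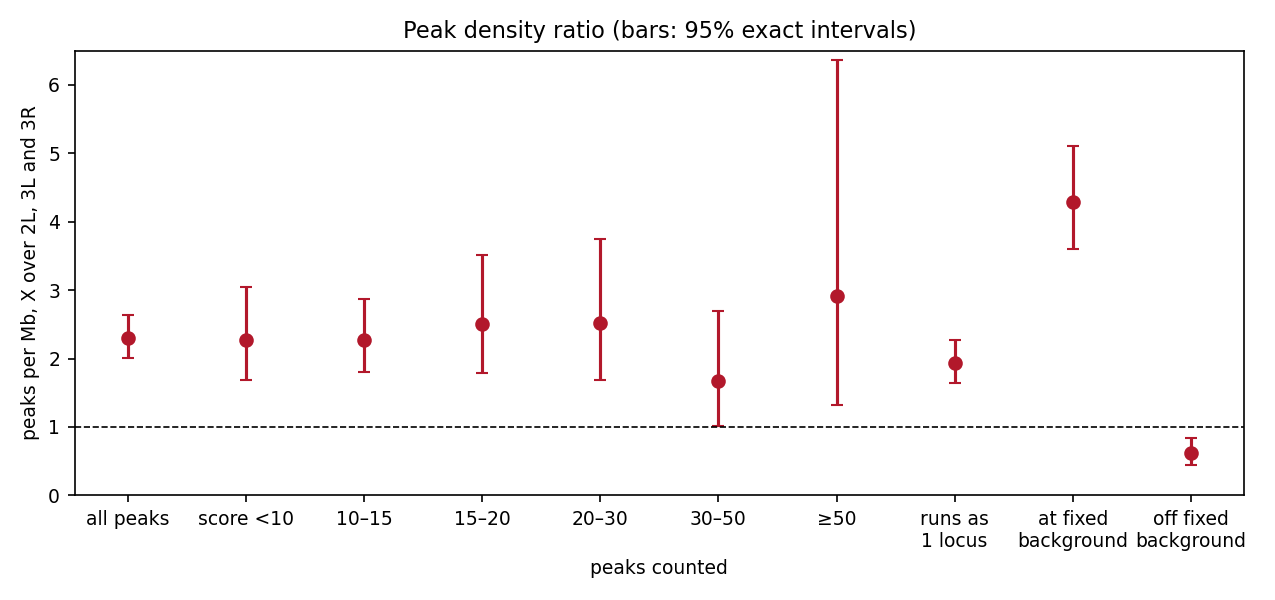
Peaks per Mb on the X divided by peaks per Mb on 2L, 3L and 3R together, for all peaks, for 6 classes of score, for runs of peaks counted as 1 locus, and for peaks at and off the fixed background, with exact 95% intervals. The points lie above the dashed line at 1, up to 4.29 at the fixed background, except the one off it, at 0.62.

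Along the X the peaks were densest on the telomere side. Position 1 of the X is at the telomere, and the numbered positions run towards the centromere. The first peak was X:60906-61191, with a score of 11.50. In complete windows of 1 Mb, by peak centre, the first 11 held 237 peaks and the last 11 held 113. The distal share was 67.7% of the 350 (62.5 to 72.6%, p = 3.06e-11, exact binomial test against equal numbers, two-sided), a split known before it was tested. It was 66.4% (59.9 to 72.4%, p = 6.81e-07, exact binomial test) with runs counted as 1 locus each.

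The windows of the other arms were divided in the same way. Peaks beyond the last complete window were not counted: 6, 8 and 2 at the centromere side of the X, 2L and 3L, and 7 at the telomere side of 3R. The middle window of 3R, with 3 peaks, was also left out, so 496 of the 516 peaks on the 3 arms were used. The windows on the telomere side held 52.0% of the peaks on 2L (42.9 to 60.9%), 55.6% on 3L (48.4 to 62.7%) and 40.5% on 3R (33.1 to 48.2%). The distal share of the X exceeded that of the 3 arms together, 49.4%, by 18.3 percentage points (p = 1.16e-07, Fisher's exact test, two-sided, a comparison chosen after the values had been seen). On the X the tilt was present among peaks wider than 1 kb, with 35 distal and 15 proximal. Among X peaks scoring 20 or more it was smaller, with 50 distal and 37 proximal, a distal share of 57.5% whose interval (46.4 to 68.0%) includes equal numbers. The distal X peaks had a median width of 408 bp and a median score of 13.23, and the proximal ones 451 bp and 14.68.

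The fall along the arm was not even. The fullest window ran from 3000001 to 4000000 with 37 peaks and the next from 8000001 to 9000000 with 33. The windows starting at 2000001 and 7000001 held 25 each and that starting at 9000001 held 22. Between these crests, the windows starting at 5000001 and 6000001 held 15 and 14. From 11000001 to 18000000 the 7 windows held 62 peaks, 8.86 ± 2.79 per window (SD over windows), with as few as 5 in the first of them. The windows starting at 18000001 and 19000001 then held 20 and 17 peaks, and the last 2 complete windows held 7 each.

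The least filled windows of the X were those starting at 11000001 with 5 peaks, at 14000001 with 6, and at 16000001, 20000001 and 21000001 with 7 each. The median window of the 3 arms also held 7. Of the 22 X windows, 17 were above that median and 8 were above the fullest of the 73 windows on the 3 arms, which held 17 peaks. These counts leave out the 90 peaks of the 2L array, which lie in a single 2L window and would make it fuller than any X window. The variance of the counts over windows, divided by their mean, was 4.72 on the X and 2.06 on the 3 arms, and lay between 1.89 and 2.07 on each of them. This measure rises with the mean of uneven counts, the number of peaks in a cluster and the tilt along the arm. It was not tested. On the X the mean count was 2.33 times that of the 3 arms and the SD over windows 2.31 times.

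**Figure D3:**
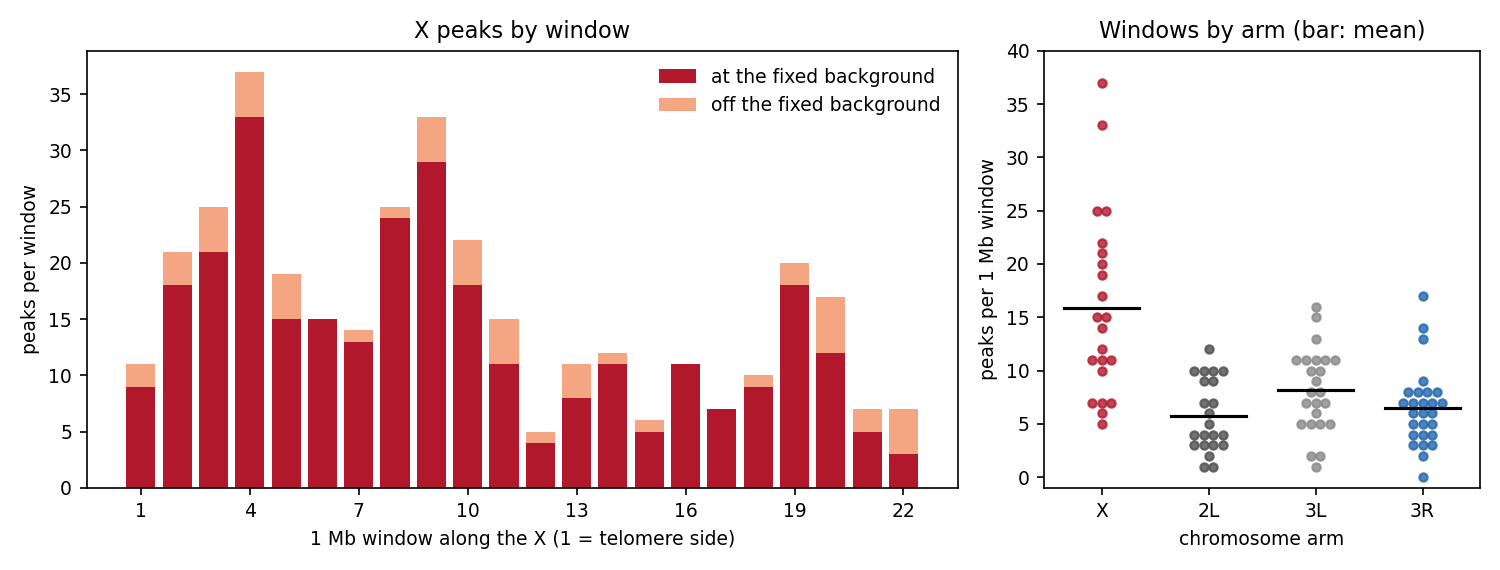
Left, X peaks in each complete 1 Mb window from the telomere side on, split into peaks at (red) and off (orange) the fixed background. Right, peaks per 1 Mb window on the X, 2L, 3L and 3R, 1 point per window with the mean as a bar. The X has 37 and 33 peaks in its fullest windows, against at most 17 on the 3 arms with the 2L array left out.

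Several long stretches of the X held no peak. The longest ran from 19732536 to 20370811, or 638 kb, and the next from 16772143 to 17368010, or 596 kb. The third, from 10819765 to 11365477 (546 kb), starts where the highest-scoring X peak ends. The next 2 ran from 11642432 to 12135392 (493 kb) and from 20580228 to 21044249 (464 kb). All 5 lie in the part of the arm beyond position 10819764. At a resolution of 100 kb, 88 of 220 windows of the X held no peak, and the fullest, starting at 1400001 and 8500001, held 10 each. Without read numbers, such a stretch cannot be called free of binding.

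Neighbouring X peaks lay at widely different distances. The gap between neighbours, counted in the bases between them, had a median of 22.2 kb on the X, with quartiles of 1.28 and 80.6 kb. The median was 61.9 kb on 2L, 65.8 kb on 3L and 76.4 kb on 3R. Gaps under 500 bp numbered 70 of the 355 on the X, 37 of them under 200 bp, and the shortest was 51 bp. There were 31 X gaps from 500 bp to 2 kb, 17 from 2 to 5 kb, 52 from 5 to 20 kb and 111 from 20 to 100 kb, so the distances ran on through all these ranges.

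A denser arm has shorter gaps by construction. To set aside the mean density of an arm, each gap was divided by the mean gap of its own arm. This was 62.4 kb on the X and 162, 123 and 151 kb on 2L, 3L and 3R. Such scaling does not remove changes of density along an arm. On the X the median gap was 16.3 kb in the distal windows and 34.1 kb in the proximal ones. On this scale 34.4% of X gaps (122 of 355, 29.4 to 39.6%) were under 0.1 of the mean, against 27.7% on the 3 arms (142 of 512, 23.9 to 31.8%). The difference of 6.63 percentage points did not pass Fisher's exact test (two-sided, p = 0.0427, adjusted p = 0.0853 over 4 comparisons). It passed at a limit of 0.05 of the mean, with 30.4% on the X and 22.1% on the 3 arms (adjusted p = 0.0139, Fisher's exact test). The ratio of the SD of the gaps to their mean was 1.59 on the X, against 1.47, 1.39 and 1.31 on 2L, 3L and 3R.

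**Figure D4:**
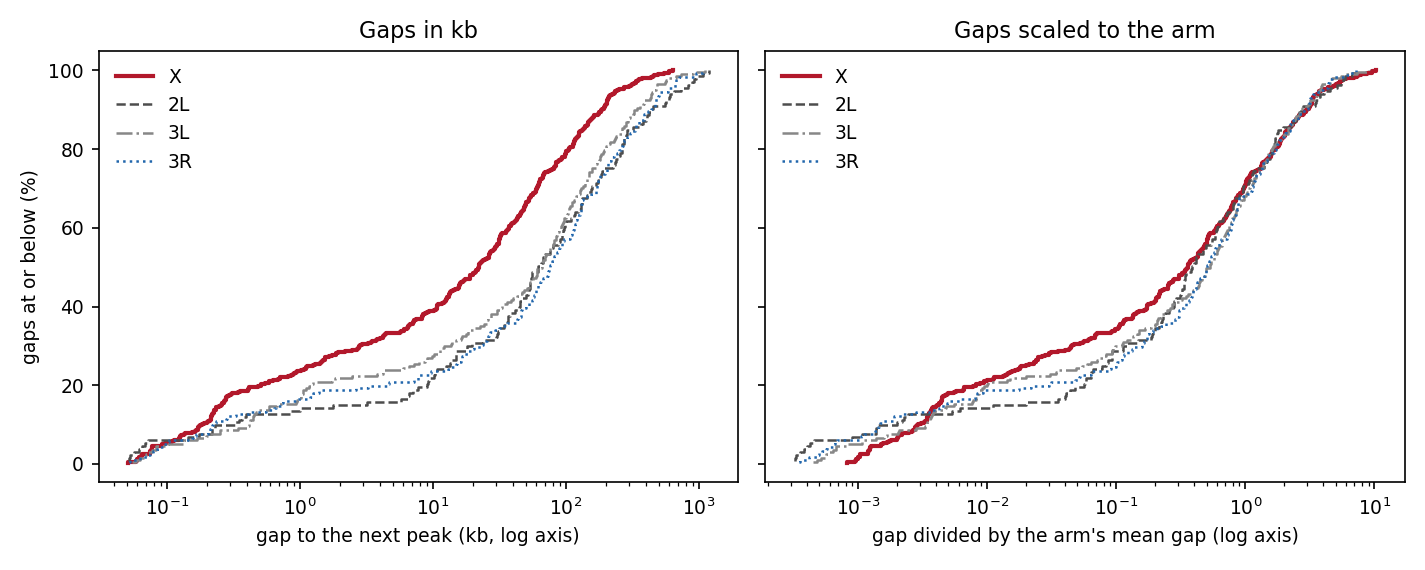
Share of gaps between neighbouring peaks at or below a given length (log axes), in kb on the left and divided by the mean gap of the arm on the right. The X curve lies left of the others in kb, with a median of 22.2 kb, and runs closer to them once scaled. Its scaled lower quartile, 0.021 of the mean, still lies below those of 2L (0.083), 3L (0.059) and 3R (0.100).

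Groups of peaks were common on the X. With neighbours joined when within 5 kb, the 356 peaks formed 165 single peaks, 48 pairs and 25 runs of at least 3, up to 7 peaks long. Runs of at least 3 held 26.7% of X peaks (95 of 356, 22.2 to 31.6%) and 10.1% of the peaks on the 3 arms (52 of 516, 7.62 to 13.0%), where there were 16 such runs. The difference of 16.6 percentage points passed the test (Fisher's exact, adjusted p = 8.33e-10). A fixed distance of 5 kb gives a denser arm more runs, and how far density accounts for the difference was not tested. When the list was limited to scores at or above its median, runs held 3 of 130 X peaks and 0 of 194 others (adjusted p = 0.255, Fisher's exact test).

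The 25 runs had a median span of 3806 bp, from 1466 to 13149 bp, and peaks covered a median of 48.1% of it. The highest peak was also the widest in 15 of the 25 runs. By their start 19 of the 25 runs lay in the first 11 Mb. Of all X loci in complete windows, single peaks included, 154 of 232 (66.4%) lay there. A distal tilt of the peaks in runs was also seen on 3L. Distal and proximal numbers were 70 and 25 on the X, 20 and 6 on 3L, 6 and 8 on 2L, and 0 and 9 on 3R. Whether such close peaks are distinct binding sites was not tested.

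The largest run held 7 peaks between positions 8550956 and 8562157. Its tallest peak, X:8554896-8555987, scored 39.96 (3.42-fold), and the other 6 scored from 7.50 to 15.80. A run of 6 between 1866437 and 1879585 had the greatest span of the 25, at 13149 bp, with its tallest peak, at 24.57, at the centromere-side end. Another run of 6, between 20575604 and 20580227, spanned 4624 bp with scores from 7.78 to 21.91. It likewise ended in its tallest peak, and the 464 kb stretch without peaks began right after it.

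The run of 5 between 3620419 and 3631182 held the widest peak of the X. There X:3621169-3623896, at 43.36, was followed 294 bp later by X:3624191-3625785, at 34.70 (3.21-fold), so that 2 broad peaks lay almost edge to edge. Among the 8 runs of 4, the one with the highest score lay between 19342992 and 19346829, where peaks covered 81.8% of 3838 bp. It opened with the peak of 60.28 and closed with one of 32.07, and 2 low peaks of 8.07 and 8.09 lay between them.

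**Figure D5:**
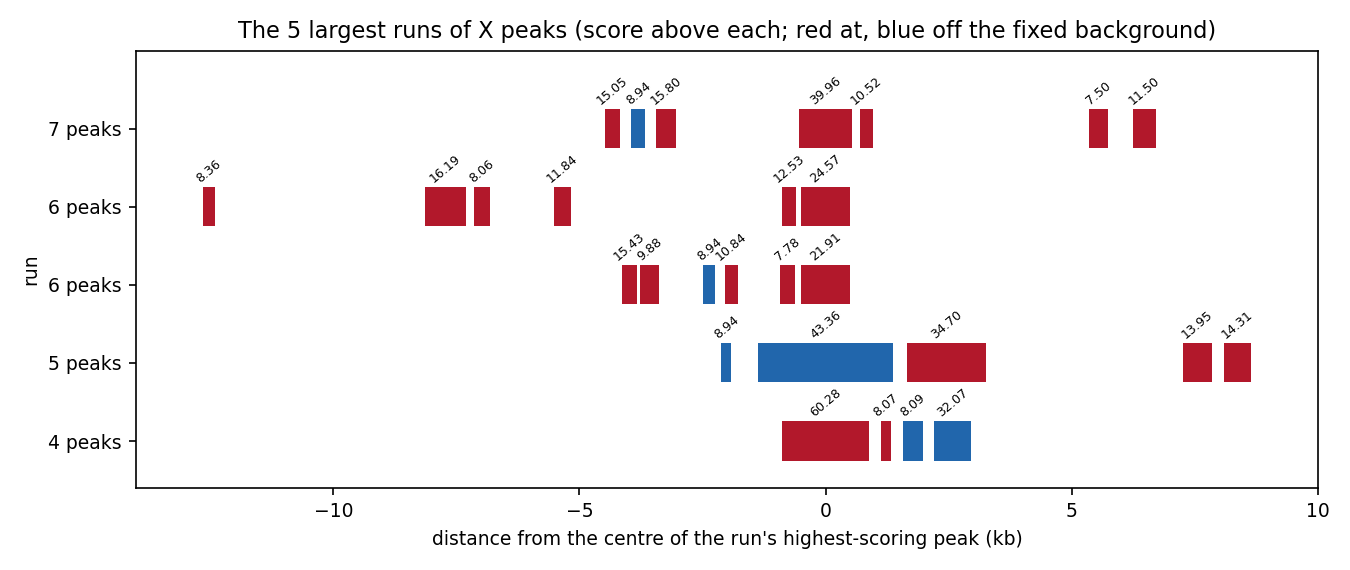
The 3 largest runs of X peaks, the run of 5 and the highest-scoring run of 4, drawn to scale around the centre of the highest-scoring peak of each (kb), with each peak's score above it. Red peaks are at the fixed background and blue ones off it; the tallest peak is 39.96 in the run of 7 and 60.28 in the run of 4.

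Peaks off the fixed background were the smaller class on the X, with 52 of 356. Their median score was 11.3 and their median width 347.5 bp, against 13.6 and 434.5 bp for the X peaks at it. Of the 52, 11 scored 30 or more, against 30 of the 304. The share at the fixed background was 86.9% in the distal windows (206 of 237, 82.0 to 90.9%) and 82.3% in the proximal windows (93 of 113, 74.0 to 88.8%), a difference that did not pass Fisher's exact test (p = 0.26, two-sided). In the last 2 complete windows 6 of 14 peaks were off it, with scores up to 66.36.

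The count of 52 depends on how closely a score must meet the expected values. The score 8.94 was shared by 63 peaks in the whole list, 7 of them on the X, and lay 0.013 below the value expected for 96 fragments. A score repeated so often next to such a value was missed by the limit of 0.01. At a limit of 0.02, chosen after this was seen, 311 X peaks or 87.4% (83.5 to 90.6%) were at the fixed background, against 269 or 52.1% (47.7 to 56.5%) on the 3 arms, and off it the ratio of peaks per Mb was 0.61. The 7 X peaks at 8.94 were narrow, from 201 to 282 bp, and 3 of them sat in the runs described above.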

How the data were processed

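GFP ChIP and input DNA of whole embryos were sequenced (2 samples each), and the authors deposited 1 list of peaks for all 4 samples together. Per the file headers, the positions are in FlyBase release 5 with MACS as the peak source. Without giving roles, BWA, MACS2, the build BDGP5 and CASAVA versions 1.7.0.3 and 1.7.0.2 are listed in the submitters' processing notes. Not given in the sources used here are the calling threshold, the handling of replicates and of reads with several matches, and the depth per sample. The deposited score has no stated unit, and was read as −log10 p because 4123 of 5954 scores lie within 0.01 of −log10 of a Poisson tail probability at 1 mean. That mean was the one between 20 and 120, in steps of 0.05, that matched the most scores. The deposited score is the authors' value and is used to describe, rank and filter peaks within the list.

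Gaps count the bases between neighbouring peaks, and the gap across the array on 2L was dropped. Extents run to the last peak of an arm, less the array. Shares were compared by Fisher's exact test with Benjamini-Hochberg adjustment over 4 comparisons, and densities by exact binomial tests adjusted over 15. None of the 15 densities was among the planned comparisons, and all were added after the values were seen. Intervals are 95% Clopper-Pearson. Python 3.11.15, scipy 1.17.1 and pandas 2.3.3 were used, and the functions were tested on simulated data. The named regions are the 20 highest and 5 widest X peaks, the first and last peak, and the 5 largest runs (ties by highest score). They also include the 5 fullest and 5 emptiest windows and the 5 longest stretches without a peak. Other regions were named after their values were seen. The members, rules and comparisons were chosen with earlier results of these data known. The gene table at hand is of release 6, so no gene or sequence was placed on a peak.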

Additional observations from a re-analysis of the deposited data

How the results depend on the processing

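No paired analysis was possible because all 4 samples were merged by the authors into a single peak list, and for that reason no replicate could be left out. Differences are in percentage points, the X minus 2L, 3L and 3R, with the array on 2L left out throughout. The distal share of X peaks kept its call in all 4 alternatives, at 13.3 to 17.9 points above equal numbers. The larger share of X peaks in runs kept its call in 7 of 8 alternatives, from 8.13 after merging peaks under 500 bp apart to 21.7 with neighbours joined within 15 kb. It missed the threshold among scores at or above the median, at 2.31. There runs held 3 of 130 X peaks and 0 of 194 others, and why was not tested. The scaled gaps passed in 3 of 8 alternatives, at 8.35 (0.05 of the mean), 9.51 (under 2 kb, not scaled) and 9.64 (3R alone), and in none of the 8 did the direction turn. Against 6.63 as reported, they fell to 1.18 among scores at or above the median and to 2.48 after merging peaks under 500 bp apart. The shares of wide and of high-scoring peaks passed in none of their 16 alternatives and turned positive in 6. For wide peaks these were 5.34 (merged), 1.23 (wider than 500 bp) and 2.93 (3L alone). For high scores they were 0.45 (merged), 0.64 (score 15 or more) and 2.50 (3L alone). The cause was not tested. The share at the fixed background did not pass as different between the distal and proximal windows of the X in any of 4 alternatives, with differences from 0.13 to 10.2 points. Leaving out X peaks beyond 21 Mb and the limit of 0.02 were chosen after the data were seen and changed no call.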
